A study of Homo sapiens with 4 samples.

Results

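The angiopoietins, their TIE receptors and the related angiopoietin-like proteins were examined in HeyA8-MDR, a human ovarian carcinoma line with multidrug resistance, grown in medium with 15% serum, 0.1% gentamicin and 300 ng/ml paclitaxel. Members were taken by gene symbol: ANGPT1, ANGPT2, ANGPT4, TEK, TIE1, ANGPTL1, ANGPTL2 and ANGPTL4, 8 genes in all. Of these, 6 had a feature on the array under the platform's gene symbols, each with 1 feature, out of 21448 features measured and 17709 with 1 symbol. No feature carried the symbol ANGPTL1 or ANGPTL2, so both were not analysed here. The study compared cells given a control microRNA inhibitor with cells given an inhibitor of miR-204-5p, an antisense oligonucleotide that blocks the mature microRNA, on Affymetrix Human Clariom S arrays, with 2 arrays in each group. Both groups were the same cell line under the same paclitaxel selection. Grouping followed the sample titles: arrays with miR204 in the title formed the inhibitor group and those without it the controls that the series design describes. The treatment field lists the inhibitor for every array and so could not separate them. The labels do not state that replicates came from separate cultures, and p-values here cover the array-to-array spread alone, part of which may be technical. In bulk RNA, fewer expressing cells and less RNA per cell cannot be told apart.

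Angiopoietin-1 (ANGPT1) is a secreted ligand that activates TIE2, the receptor tyrosine kinase encoded by TEK, and stabilises vessels. Angiopoietin-2 (ANGPT2) binds the same receptor, mostly as a context-dependent antagonist that loosens vessels, and angiopoietin-4 (ANGPT4) is a further ligand of TIE2. TIE1 is the related receptor that has no established high-affinity angiopoietin ligand and modulates TIE2. Angiopoietin-like proteins do not bind TIE2, though most share the coiled-coil and fibrinogen-like layout. ANGPTL4, the member studied most in tumours, is secreted, inhibits lipoprotein lipase and is induced by hypoxia and by PPAR nuclear receptors. The TIE receptors are known chiefly from endothelial cells.

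The microRNA that the inhibitor targets is shown because the groups differ in its blockade. Its mature sequence from RefSeq (GRCh38.p14, chr9:70810031-70810052, minus strand) is set beside that of miR-211-5p (chr15:31065095-31065116, minus strand), with capitals marking the seed, bases 2 to 8 from the 5′ end, which pairs with target messages.
hsa-miR-204-5p: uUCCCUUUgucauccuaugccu
hsa-miR-211-5p: uUCCCUUUgucauccuucgccu
Both have 22 bases and the same seed, and they differ at 2 bases outside it. ANGPT1 has been reported elsewhere as a miR-204 target. Target sites in the messages of the members were not analysed here, and neither was the amount of the microRNA.

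ANGPTL4 had the largest difference of the 6 members and lay higher in both inhibitor arrays. ANGPT4 was the other member with both inhibitor arrays above both controls. ANGPT1, ANGPT2 and TEK had overlapping groups and mean differences near 0, and TIE1 was lower by a margin that 1 control array set. None of the 6 members passed an adjusted p of 0.05 in limma with Benjamini-Hochberg adjustment over all features, a threshold that 0.0513% of all features passed (11 of 21448, all higher with the inhibitor). At an unadjusted p under 0.05, 2 members were higher and 0 lower, where 5.11% of all features were higher and 12.8% lower. The groups did not overlap for 3 of the 6 members, 2 higher and 1 lower, against 50.3% of all features, 16.5% higher and 33.8% lower. By means, 3 members were higher and 3 lower, where 40.2% of all features were higher and 59.2% lower. The median log2 difference of the 6 members was -0.01, beside -0.07 over all features.

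**Figure D1:**
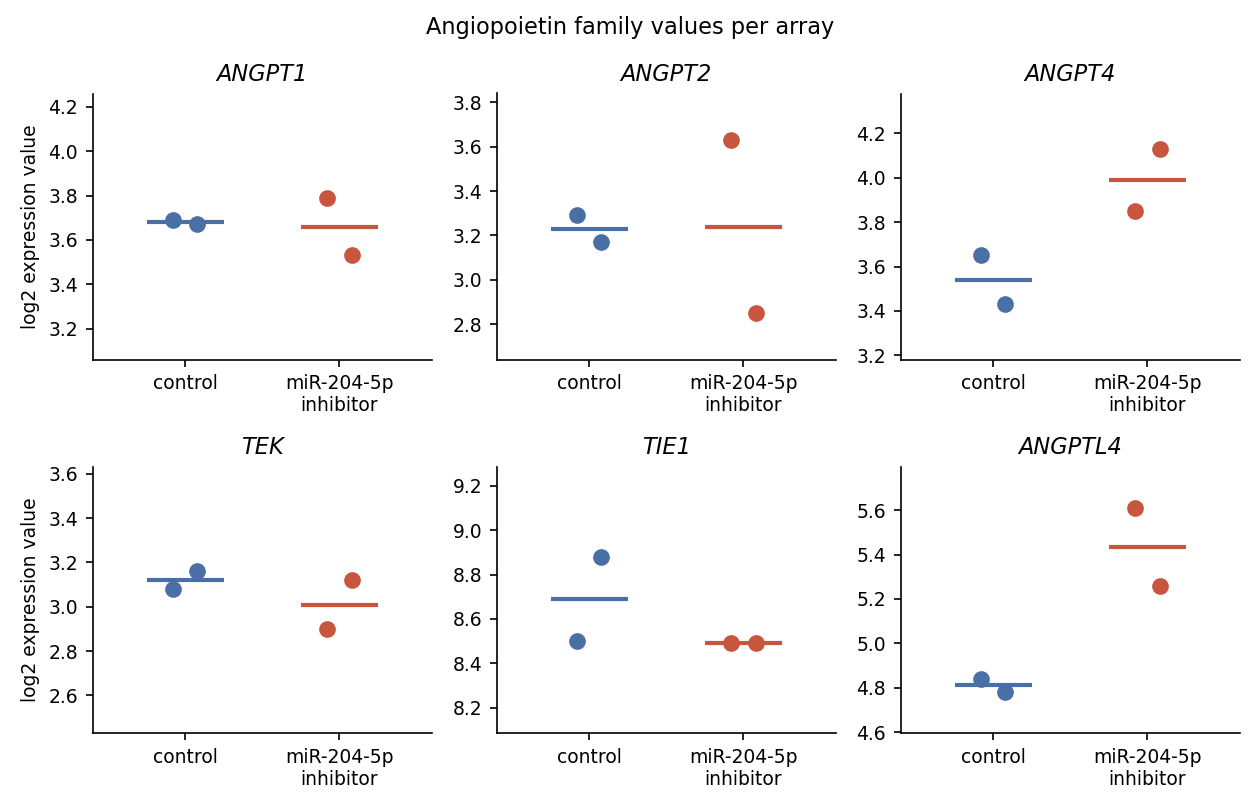
Log2 expression value (vertical axis, the same span of 1.2 units in each panel) of the 6 measured members in the control and inhibitor arrays; each point is 1 array and each bar the mean of 2 arrays. ANGPTL4 and ANGPT4 have both inhibitor points above both control points, while ANGPT1, ANGPT2 and TEK overlap.

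Among the ligands, ANGPT1 had log2 values of 3.69 and 3.67 in control arrays, then 3.79 and 3.53 with the inhibitor. The inhibitor values lay on either side of the controls. The log2 difference, inhibitor minus control, was -0.02 (SE 0.156, adjusted p = 0.96 in limma), and its 95% interval of -0.39 to 0.35 spans 0.763-fold to 1.27-fold. That interval leaves room for a change of that size in either direction, so the values do not show that ANGPT1 stayed level.

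ANGPT2 read 3.29 and 3.17 in control arrays, then 3.63 and 2.85 with the inhibitor. The 2 inhibitor arrays held the highest and the lowest value of the 4, and their spread (SD 0.552, n = 2) was wider than that of the controls (SD 0.0849, n = 2). The log2 difference was 0.01 (SE 0.255, adjusted p = 0.99 in limma), with a 95% interval of -0.60 to 0.62, the widest of the 6 members. Its sign turned when the arrays were quantile-normalized again (-0.06), and leaving out inhibitor array 1 gave -0.38 and leaving out inhibitor array 2 gave 0.40, so the direction for ANGPT2 was set by which inhibitor array was read.

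The balance of ANGPT2 to ANGPT1, the competing ligands of TIE2, was taken within each array. On the log2 scale this removes a constant shift of a whole array, but not a shift that depends on level. The log2 value of ANGPT2 minus that of ANGPT1 was -0.40 and -0.50 in control arrays, then -0.16 and -0.68 with the inhibitor. Only the change of this quantity between groups can be read, since levels of different features are not on a shared scale. The group means differed by 0.03 log2 units (exact permutation test over arrays, two-sided, p = 1), and the smallest p that 2 against 2 arrays allow is 0.333. Leaving out inhibitor array 1 gave -0.23 and leaving out inhibitor array 2 gave 0.29, so the small mean difference joined inhibitor arrays that lay on either side of the controls.

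ANGPT4 read 3.65 and 3.43 in control arrays, then 3.85 and 4.13 with the inhibitor. Both inhibitor arrays lay above both controls, with a gap of 0.20 between the nearest values. The means were 3.54 ± 0.156 and 3.99 ± 0.198 (SD, n = 2 per group), a log2 difference of 0.45 (SE 0.169, 95% interval 0.05 to 0.85) or 1.37-fold, with an unadjusted p of 0.033 and an adjusted p of 0.24 in limma. The interval is not adjusted for the number of features, which is why it leaves out 0 while the adjusted p does not pass. The difference was 0.40 to 0.52 under the settings that kept all 4 arrays.

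Of the receptors, TEK read 3.08 and 3.16 in control arrays, then 2.90 and 3.12 with the inhibitor. The second inhibitor array lay between the controls. The log2 difference was -0.11 (SE 0.152, 95% interval -0.47 to 0.25, adjusted p = 0.74 in limma). TEK, ANGPT1, ANGPT2 and ANGPT4 had means over the 4 arrays from 3.06 to 3.77, within the dimmest 25% of features (up to 3.96). Detection calls were not analysed here, so for these 4 genes a low level cannot be told apart from no transcript.

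TIE1 read 8.50 and 8.88 in control arrays, then 8.49 and 8.49 with the inhibitor. Both inhibitor arrays were lower than the controls, but control array 1 exceeded them by only 0.01, so the difference rested on control array 2. The log2 difference was -0.20 (SE 0.173, 95% interval -0.61 to 0.21, 0.871-fold, adjusted p = 0.57 in limma). Leaving out control array 1 gave -0.39, and leaving out control array 2 gave -0.01. Features as bright as TIE1 were lower in the inhibitor arrays as a whole: the brightest 25% of features had a median difference of -0.20, the value of TIE1 itself. After repeated quantile normalization the TIE1 difference was 0.00 and after cyclic loess it was 0.01.

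TIE1 lay outside the dimmest 25% of features that held TEK. Endothelial markers in the same arrays lay on both sides of that limit. The mean over 4 arrays ran from 2.71 to 8.52 for the 10 markers, with KDR, the main VEGF receptor, at 2.58 to 2.85 over the 4 arrays, and PECAM1, the platelet-endothelial adhesion molecule, at 3.78 to 4.53. EGFL7, a secreted endothelial factor, had values of 8.42 to 8.65 over the 4 arrays. CDH5, the endothelial cadherin, read 8.13 and 8.06 in control arrays, then 7.01 and 7.03 with the inhibitor, a log2 difference of -1.08 (SE 0.14, adjusted p = 0.10 in limma), and passed with the intensity trend (adjusted p = 6.7e-04 in limma). The mean of the 10 endothelial markers per array was 5.72 to 5.73 in the controls and 5.63 to 5.68 in the inhibitor arrays. As with TIE1, these are levels in cultures of a carcinoma line, whose purity was not tested.

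ANGPTL4 read 4.84 and 4.78 in control arrays, then 5.61 and 5.26 with the inhibitor. The controls lay within 0.06 of each other, and the lower inhibitor array was 0.42 above the higher control. The means were 4.81 ± 0.0424 and 5.44 ± 0.247 (SD, n = 2 per group), a log2 difference of 0.62 (SE 0.169, 95% interval 0.22 to 1.03). This is 1.54-fold, with an interval of 1.17-fold to 2.04-fold, an unadjusted p of 0.0081 and an adjusted p of 0.18 in limma. Among all features, 1.63% had a larger increase and 4.50% a smaller p.

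The ANGPTL4 difference stayed short of the threshold under each setting that kept the gene, and the filter at the median level removed the gene. Its sign held too, but only array rescaling could have turned it, since both inhibitor arrays lay above both controls. The difference was 0.62 to 0.69 with all 4 arrays, with adjusted p-values from 0.092 (intensity trend in the variance prior) to 0.43. With 1 array left out it was 0.45 to 0.80, the lowest without inhibitor array 1 and the highest without inhibitor array 2.

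**Figure D2:**
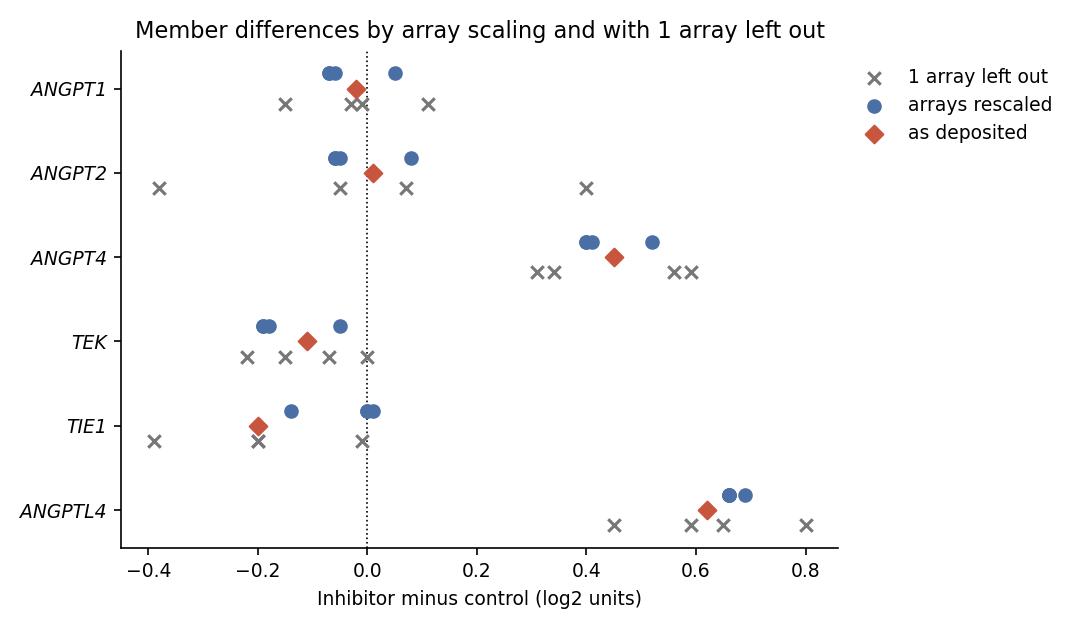
Log2 difference, inhibitor minus control (horizontal axis), of each member from the deposited values (diamonds), with arrays rescaled by quantile normalization with and without an intensity trend, by cyclic loess or to equal medians (circles), and with 1 array left out (crosses). ANGPTL4 and ANGPT4 stay above 0 throughout, TIE1 moves to 0.00 or 0.01 with quantile normalization or cyclic loess, and ANGPT2 spreads from -0.38 to 0.40. The crosses of ANGPTL4 and ANGPT4 could not fall below 0, since both inhibitor arrays lay above both controls.

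The remaining angiopoietin-like genes were read as a comparison. ANGPTL5, ANGPTL6, ANGPTL7 and ANGPTL8 were measured, 4 genes. None passed the threshold in limma, nor an unadjusted p of 0.05. By means 2 were higher and 2 lower, and the median difference was 0.06. ANGPTL8, a hepatic and adipose factor in lipase control, was lower at 5.60 and 5.83 in the inhibitor arrays against 5.92 and 6.11 in the controls (log2 difference -0.30, SE 0.16, adjusted p = 0.37 in limma). ANGPTL7, a secreted protein known from the eye, differed by 0.25 (SE 0.211, 0.02 to 0.46 with 1 array left out), and its groups overlapped. ANGPTL6 differed by 0.12 (SE 0.156) and ANGPTL5 by -0.01 (SE 0.166), both with overlapping groups. Only ANGPTL4 and ANGPT4 of the 10 measured family genes had an interval that left out 0; differences between family genes were not tested.

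**Figure D3:**
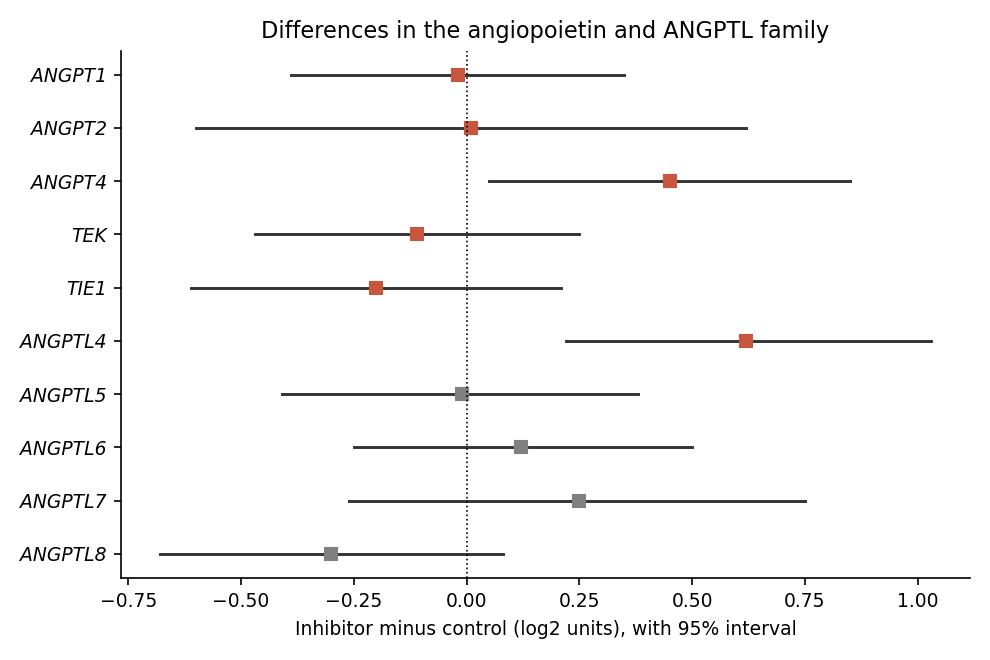
Log2 difference, inhibitor minus control, with its 95% interval from limma (horizontal axis, not adjusted for the number of features) for the 6 members (red) and the 4 other measured ANGPTL genes (grey). The intervals of ANGPTL4 (0.22 to 1.03) and ANGPT4 (0.05 to 0.85) lie above 0 and the others include it.

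Several family genes lie inside other genes. In RefSeq, ANGPT2 lies within MCPH1, ANGPTL1 within RALGPS2, ANGPTL2 within RALGPS1, ANGPTL7 within MTOR and ANGPTL8 within DOCK6. MTOR was not analysed here. MCPH1 carried no named feature here. RALGPS1, an exchange factor for Ral GTPases, read 4.45 and 4.62 in control arrays, then 5.11 and 4.60 with the inhibitor (log2 difference 0.32, SE 0.201, 0.06 to 0.57 with 1 array left out, adjusted p = 0.44 in limma). Its relative RALGPS2 had values of 7.52 and 7.33, then 7.17 and 7.14 (-0.27, SE 0.148, adjusted p = 0.38 in limma). DOCK6, a guanine nucleotide exchange factor, differed by 0.33 (SE 0.165), opposite in sign to the nested ANGPTL8. No value of a host gene stands for the gene inside it.

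The promoters of ANGPTL4 and ANGPT4 are shown because these were the members with both inhibitor arrays above both controls. Each is the 250 bases before the RefSeq start (GRCh38.p14), written 5′ to 3′ on the gene's strand: ANGPTL4 at chr19:8363905-8364154 on the plus strand and ANGPT4 at chr20:916335-916584 on the minus strand. Capitals mark a TATA box (TATAAA) and the core of the hypoxia-inducible factor motif (ACGTG, or CACGT where it lies on the other strand).
ANGPTL4: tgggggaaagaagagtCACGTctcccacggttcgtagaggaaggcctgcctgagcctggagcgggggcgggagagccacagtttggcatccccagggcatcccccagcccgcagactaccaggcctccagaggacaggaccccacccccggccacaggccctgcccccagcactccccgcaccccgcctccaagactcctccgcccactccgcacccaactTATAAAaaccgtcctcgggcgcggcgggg
ANGPT4: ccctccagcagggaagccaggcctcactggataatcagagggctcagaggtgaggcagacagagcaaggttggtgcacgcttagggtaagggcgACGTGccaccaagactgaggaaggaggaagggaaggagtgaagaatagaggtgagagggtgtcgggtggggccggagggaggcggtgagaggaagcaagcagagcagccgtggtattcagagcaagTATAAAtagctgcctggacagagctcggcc
Both windows held TATAAA on the gene's strand, starting 29 bases before the start in ANGPTL4 and 30 bases before it in ANGPT4. Of 35116 RefSeq promoter windows of the same length, 6.8% held TATAAA on that strand. ACGTG lay on the opposite strand of ANGPTL4 and on the gene's strand of ANGPT4, and 18.5% of all windows held it on either strand. The promoter windows of TIE1 and TEK held neither motif. All 4 of these genes held GGAAG, the core of many ETS factor sites, on either strand, as did 65.1% of all windows. The 3 motifs do not overlap each other in the ANGPTL4 window, and a match is a description of the letters, not of a factor bound there.

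Genes around TIE2 signalling were read from lists chosen by function. List counts are from limma, with the number at an unadjusted p under 0.05 beside them. For all lists below, the shares over all features by means were 59.2% lower and 40.2% higher. At that unadjusted p they were 12.8% lower and 5.11% higher. Of 8 surface partners and proteases of the TIE receptors, 0 passed the threshold and 1 was lower at the unadjusted p, with 7 lower and a median difference of -0.18 (0.04 after quantile normalization). PTPRB, the endothelial phosphatase that dephosphorylates TIE2, read 4.68 and 4.10 in control arrays, then 3.83 and 3.66 with the inhibitor, a log2 difference of -0.64 (SE 0.215, adjusted p = 0.22 in limma). All of its inhibitor values lay below the controls. The integrin chain ITGB3 differed by -0.47 (SE 0.215), and its inhibitor values of 3.57 and 4.15 lay below 4.25, the lower control. With 1 array left out PTPRB ran from -0.94 (without control array 2) to -0.36 (without control array 1), and ITGB3 from -0.77 (without inhibitor array 2) to -0.19 (without inhibitor array 1).

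Of 18 measured intracellular TIE2 signalling genes out of 24 listed, 0 passed and at the unadjusted p 1 was higher and 1 lower, with, by means, 4 higher, 13 lower and 1 equal, and a median of -0.20 (-0.06 after quantile normalization). DOK2, the docking protein that TIE2 recruits, read 4.58 and 4.51 in control arrays, then 5.08 and 5.31 with the inhibitor, a log2 difference of 0.65 (SE 0.153, adjusted p = 0.16 in limma). The kinase MAPK3, also known as ERK1, differed by -0.42 (SE 0.15, adjusted p = 0.23 in limma), or by -0.22 at the smallest under rescaling.

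Of 12 transcription factors reported to control angiopoietin or TIE genes, 0 passed at either level, 5 were higher and 7 lower, and the median was -0.03, or 0.09 after quantile normalization or cyclic loess. EPAS1, the hypoxia-inducible factor HIF-2alpha, read 8.61 and 8.96 in control arrays, then 9.51 and 9.04 with the inhibitor (log2 difference 0.49, SE 0.211, adjusted p = 0.29 in limma). The lower inhibitor array was 0.08 above the higher control, and the difference ran from 0.25 (inhibitor array 1 left out) to 0.72 (inhibitor array 2 left out). The ETS factor ELF1 differed by -0.17 (SE 0.144), and its sign turned under rescaling, at up to 0.04. Of 7 measured reported receptors of angiopoietin-like proteins out of 8, 0 passed at either level and 6 were lower, with a median of -0.19 (-0.09 after quantile normalization or cyclic loess). The integrin chain ITGB5 differed by -0.40 (SE 0.182), or by -0.61 to -0.20 with 1 array left out.

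ANGPTL4 belongs to the genes that hypoxia and PPAR receptors induce, and the other genes of these classes were set beside it. Of 11 measured hypoxia targets out of 12, 0 passed the threshold. At the unadjusted p 4 were higher and 1 lower, where 5.11% and 12.8% of all features were. By means 6 were higher and 5 lower, and the median log2 difference was 0.12 against -0.07 over all features (0.28 against 0.00 after quantile normalization). In 6 of them both inhibitor arrays lay above both controls and in 3 both lay below, where 16.5% and 33.8% of all features did so. ADM, the vasodilator adrenomedullin, had values of 5.98 and 6.09, then 6.77 and 6.61, a log2 difference of 0.65 (SE 0.148, adjusted p = 0.16 in limma). DDIT4, an inhibitor of mTORC1 that cell stress also induces, had values of 5.90 and 5.50, then 6.39 and 6.40, a difference of 0.69 (SE 0.176, adjusted p = 0.17 in limma). Both passed with an intensity trend in the prior, at adjusted p = 0.028 and adjusted p = 0.039 in limma, a setting under which 0 of the 6 members passed and 7.11% of all features did, 1.02% higher and 6.09% lower. PDK1, a mitochondrial kinase on the same list, went the other way at 6.23 and 6.73, then 5.98 and 5.94; it was picked out after its values were seen.

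Of 12 measured PPAR targets out of 14, 0 passed, with 1 higher and 2 lower at the unadjusted p. By means 4 were higher and 8 lower, where 40.2% and 59.2% of all features were. The median was -0.10 (0.00 after quantile normalization). ACSL1, a fatty acyl-CoA synthetase, had values of 6.48 and 6.64, then 6.10 and 5.97 (log2 difference -0.53, SE 0.149, adjusted p = 0.18 in limma). The mitochondrial carrier UCP2 differed by -0.55 (SE 0.16, adjusted p = 0.19 in limma). Both lay lower in the inhibitor arrays, while ANGPTL4 lay higher. The 1 target that was higher at the unadjusted p was CPT1A, named after its values were seen. It had values of 5.99 and 6.26, then 6.55 and 6.59 (log2 difference 0.45, SE 0.157, adjusted p = 0.23 in limma). Of 6 measured PPAR receptors and partners out of 8, 0 passed, 1 was lower at the unadjusted p and the median was -0.02, or 0.15 after quantile normalization or cyclic loess. PPARG, the adipogenic receptor of this family, had values of 6.02 and 6.07, then 5.21 and 5.47, a difference of -0.71 (SE 0.156, adjusted p = 0.15 in limma), and with the intensity trend it passed (adjusted p = 0.039 in limma). Its coactivator PPARGC1A differed by 0.26 (SE 0.162, 0.10 to 0.41 with 1 array left out).

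In the list of lipases, their partners and the convertases that cut ANGPTL proteins, 8 of 11 were measured, 0 passed and 1 was lower at the unadjusted p. By means 2 were higher and 6 lower, with a median of -0.12. Among all features 59.2% were lower by means and 12.8% lower at the unadjusted p. LPL, the lipase that ANGPTL4 inhibits, had values of 4.99 and 4.85, then 4.82 and 4.81, and was named after its values were seen because it is the enzyme ANGPTL4 acts on. SDC1, a heparan sulfate proteoglycan of the cell surface, had values of 8.36 and 8.49, then 7.57 and 7.65, a log2 difference of -0.81 (SE 0.145, adjusted p = 0.13 in limma). With the intensity trend SDC1 passed (adjusted p = 0.0028 in limma), and its difference was -0.81 to -0.62 with all 4 arrays. FURIN, a convertase that cleaves ANGPTL4, differed by -0.35 (SE 0.234), and its groups overlapped. For FURIN, leaving out inhibitor array 1 gave -0.04 and leaving out inhibitor array 2 gave -0.66.

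**Figure D4:**
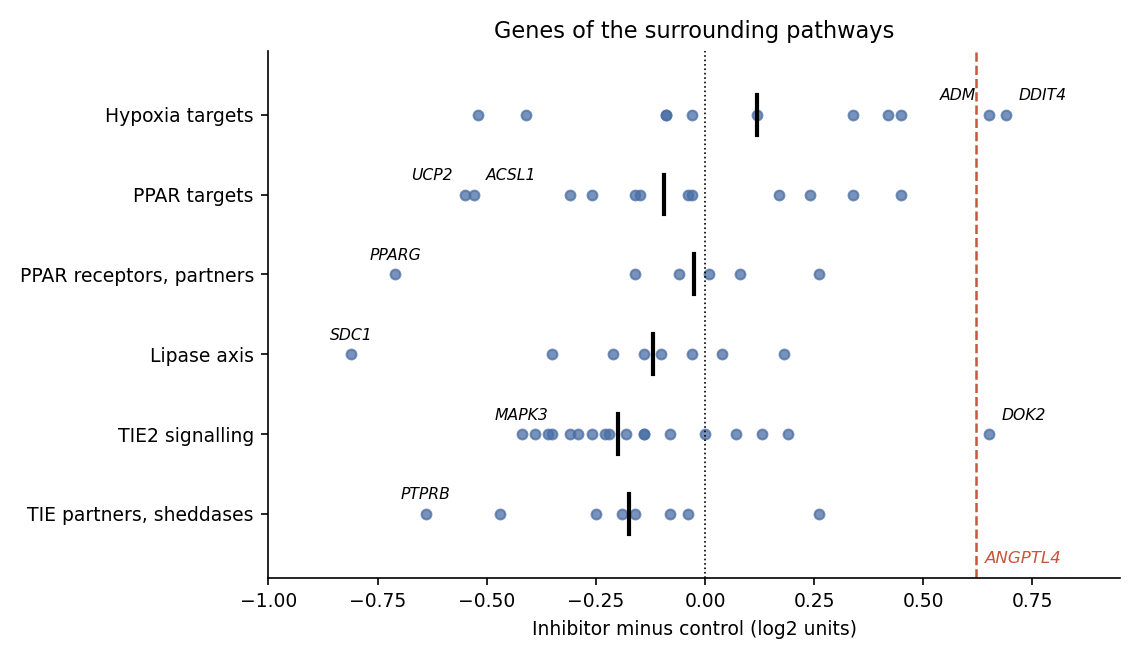
Log2 difference, inhibitor minus control (horizontal axis), of each measured gene in 6 lists around the family; each point is 1 gene, black bars are list medians, and the dashed line is ANGPTL4 at 0.62. In these 6 lists ADM, DDIT4 and DOK2 lie beyond the ANGPTL4 line, and PPARG, SDC1 and PTPRB lie farthest below 0 in their lists.

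The 5 named features whose centred values over the 4 arrays lay closest to those of ANGPTL4 were OR9Q1, OR2T12, SLPI, PPP1R15A and IRS2, with root mean square differences of 0.027 to 0.047 log2 units. PPP1R15A encodes the stress-induced phosphatase subunit GADD34 and had values of 7.36 and 7.22, then 8.01 and 7.74. IRS2, an adaptor of the insulin receptor, had values of 6.25 and 6.32, then 7.06 and 6.72. SLPI, a secreted protease inhibitor, differed by 0.59 (SE 0.161), and the olfactory receptor genes OR9Q1 and OR2T12 by 0.59 (SE 0.172) and 0.63 (SE 0.164). With 4 arrays such likeness is easily met: 90 of 17708 named features lay within 0.1 of ANGPTL4. OR9Q1 and OR2T12, with means of 2.73 and 3.64, sat within the dimmest 25% of features.

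Across the series, array medians ran from 5.65 to 5.68 in the controls and from 5.59 to 5.61 in the inhibitor arrays, and the number of arrays limits the precision. The dimmest 25% of features had a median difference of 0.07 and the brightest 25% one of -0.20; both were within 0.01 of 0 after quantile normalization.

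The line was checked against 11 carcinoma, keratin and mesenchymal genes. The keratins KRT8 and KRT18 and vimentin (VIM) lay at 10.74 to 12.00 over the 4 arrays and the lineage factor PAX8 at 8.31 to 8.51. Lower values were seen for the epithelial adhesion gene EPCAM, at 2.93 to 3.87. The carcinoma genes MUC16, at 4.35 to 4.86, and MSLN, at 3.11 to 3.78, also lay low. By their means over the 4 arrays, EPCAM (3.34) and MSLN (3.38) sat among the dimmest features (up to 3.96). The drug pump ABCB1 had values of 7.55 to 7.77. Of the 11 genes, 0 passed in limma. All 11 were lower in the inhibitor arrays by their means, 10 with groups apart and 3 at an unadjusted p under 0.05. Over all features, 59.2% were lower by their means, 33.8% with groups apart and 12.8% at that unadjusted p. The median level of the 11 genes was 8.39, and features brighter than 7.26 had a median difference of -0.20, with 18.5% higher. Whether the 11 genes fell more than features of like level was not tested. The 11 genes had a median difference of -0.31 (-0.09 after quantile normalization or cyclic loess). Their mean per array was 8.02 to 8.18 in controls and 7.81 in both inhibitor arrays. WT1, a transcription factor of serous ovarian carcinoma, read 6.81 and 6.71, then 6.11 and 6.30, and passed over features above the median level (adjusted p = 0.040 in limma). Over those features 144 passed as higher and 867 as lower. The keratin KRT7 read 10.69 and 10.75, then 10.30 and 10.34, and passed with the intensity trend (adjusted p = 0.014 in limma). With that trend 1.02% of all features passed as higher and 6.09% as lower. Neither gene passed under another setting. With all 4 arrays the difference was -0.55 to -0.43 for WT1 and -0.40 to -0.19 for KRT7.

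Mean marker values per array were 5.17 to 5.18 in the controls and 5.09 to 5.17 in the inhibitor arrays for 7 mural cell genes, 4.31 to 4.35 and 4.30 to 4.33 for 6 leukocyte genes, and 3.49 to 3.68 and 3.62 to 3.74 for 4 adipocyte genes. In these 3 lists 0 genes passed in limma, and 1 leukocyte gene, the integrin chain ITGAM, was lower at an unadjusted p under 0.05 (log2 difference -0.46, SE 0.157). The T cell receptor chain CD3E differed by 0.33 (SE 0.156), the mural genes PDGFRB by -0.35 (SE 0.154) and ACTA2 by -0.27 (SE 0.157), and the adipokine genes LEP by 0.27 (SE 0.152) and ADIPOQ by 0.16 (SE 0.152). Within the dimmest 25% of features lay 2 of the 7 mural, 2 of the 6 leukocyte and 3 of the 4 adipocyte genes. Among the genes above that limit were ACTA2, a smooth muscle actin with a mean of 8.05, and CSF1R, a macrophage receptor with a mean of 5.72. All 4 arrays were of the HeyA8-MDR line, so these are levels of marker genes in cultures of that line, whose purity was not tested.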

How the data were processed

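Total RNA was measured on 1-colour Affymetrix arrays, 4 in all. The deposited values are log2 expression made by the authors with RMA (background correction, quantile normalization, probe summary) using Transcriptome Analysis Console 4.0, as the submitters' processing notes list it; its parameters and the genome build are not given in the sources used here. Symbols came from the platform annotation, and the brightest feature stood for a symbol. All 21448 features were fitted with limma 3.58.1 in R 4.3.3 (lmFit, eBayes, no replicate block; 2 residual and 4.78 prior degrees of freedom), and p-values were adjusted by Benjamini-Hochberg over all of them at 0.05. The procedure was tested on simulated data. In each of 5 runs per fold, 200 of 21448 features were changed, with a spread that did not depend on level. There 2-fold changes, larger than any member's estimate, were not recovered at the threshold, while 4-fold changes mostly were. The spread of the real arrays fell with level, so recovery may differ in them. A member that did not pass is not shown to be unchanged. Intervals are at 95%. Members and the 15 lists were chosen with earlier results of these data known. Named genes were all members, in each list those past the threshold or otherwise the 2 with the largest moderated statistic, host genes of members, and the 5 features closest to the member with the largest statistic. KDR, EGFL7, KRT8, KRT18, VIM, PAX8, EPCAM, MUC16, MSLN, ABCB1, CSF1R, LPL, PDK1, CPT1A, ANGPTL5, ANGPTL6 and VEGFA fall outside that rule and were named after their values were seen. Alternatives covered the variance prior, array scaling, low-value filters, the replicate block, moderation and each array left out.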

Additional observations from a re-analysis of the deposited data

How the results depend on the processing

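No member passed the threshold under a setting that kept it: both level filters removed ANGPT1, ANGPT2, ANGPT4 and TEK, and the filter at the median level removed ANGPTL4. In the settings run, ANGPTL4, ANGPT4 and TEK did not turn sign. For ANGPTL4 and ANGPT4 only array rescaling could have turned it, since both inhibitor arrays lay above both controls. The settings of the prior, filters, block and moderation leave the difference itself as it is. ANGPT1 was 0.05 with equal array medians. ANGPT2 was -0.06 after quantile normalization, -0.05 after cyclic loess and -0.06 with quantile normalization and trend. TIE1 was 0.00, 0.01 and 0.00 under those 3. With 1 array left out, differences ran from -0.15 to 0.11 (ANGPT1), -0.38 to 0.40 (ANGPT2), 0.31 to 0.59 (ANGPT4), -0.22 to 0.00 (TEK), -0.39 to -0.01 (TIE1) and 0.45 to 0.80 (ANGPTL4). The 11 features past the threshold became 1525 with an intensity trend, 559 with quantile normalization and trend, 38 above the 25th percentile of level, 1011 above the median level, 4 without moderation, 0 after quantile normalization (2932 at an unadjusted p under 0.05 in limma) and 0 whichever 1 array was left out (924 to 5878 at that unadjusted p). With the replicate block 0 features passed in limma (3220 at an unadjusted p under 0.05). In this balanced design the block cannot change a difference, only its SE. The SE of ANGPT2 went from 0.255 to 0.212 and that of ANGPT4 from 0.169 to 0.182. Same-numbered arrays deviated with a correlation of 0.01 across features, so no strong shared replicate effect was seen. That value cannot settle whether same-numbered arrays were handled as pairs, which the labels do not state. List counts moved from 0 to 2 hypoxia targets with the trend (ADM, DDIT4), with quantile normalization and trend (VEGFA, ADM) and above the median level (ADM, DDIT4). They moved to 1 for the lipase list (SDC1, under the same 3), for PPAR receptors (PPARG, trend and above the median level), for PPAR targets (ACSL1, above the median level) and for the transcription factors (EPAS1, quantile normalization and trend). Over all features, 219 passed as higher and 1306 as lower with the trend, 1.02% and 6.09% of 21448. With quantile normalization and trend 304 passed as higher and 255 as lower. Above the median level 144 of the features kept passed as higher and 867 as lower. VEGFA is named here because it was called. Averaging several features per symbol changes nothing, since each member had 1. Among marker genes CDH5 passed under 4 settings, KRT7 with the trend and WT1 above the median level. Causes of these shifts were not tested. Low signal limits ANGPT1, ANGPT2, ANGPT4 and TEK.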
